A study of Rattus norvegicus with 22 samples.

Results

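The Dlk1-Dio3 region is an imprinted stretch of the rat genome that carries one of the largest groups of microRNA (miRNA) genes in mammals. Its miRNAs were taken here as all names whose number is on a list of 43 numbers, with any letter or arm. That list gave 70 of the 468 distinct miRNA names in the files, and 41 of the 43 numbers had at least 1 name. Names with the numbers of miR-494 and miR-679 were not analysed here. By place in the region, 21 names (13 numbers) belong to the proximal group around the gene Rtl1, and 49 names (30 numbers, with the 2 just named) to the distal group from miR-379 to miR-410.

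The values are small RNA sequencing libraries of the hippocampus, cut to its CA1 part per the labels' protocols, from male Long Evans rats, an outbred laboratory strain, aged 14 weeks. The 11 CPF libraries came from rats given chlorpyrifos (CPF), an organophosphate insecticide that blocks acetylcholinesterase, by subcutaneous injection of 10 mg/kg per day for 21 days. The 11 control libraries came from rats that had peanut oil, the vehicle, injected for the same 21 days. Per the labels, 1 cohort also had fear conditioning and the other had none, but which library belongs to which cohort is not given. The labels name no animals, so the p-values below measure only the spread between these libraries.

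Genes of this region are expressed from 1 parental chromosome. The protein-coding genes Dlk1, Rtl1 and Dio3 are read from the paternal copy, and the long noncoding RNAs and the miRNAs from the maternal copy. The miRNAs are thought to be cut from long maternal transcripts, and in the adult they are best known from brain. A miRNA hairpin gives a 5p and a 3p strand, of which usually 1 is kept, and the seed, bases 2 to 8 of the mature strand, does most of the target pairing. miR-127 and miR-136 lie antisense to Rtl1 and are fully complementary to its transcript. miR-134 and miR-329, of the distal group, are known for activity-dependent growth of dendrites.

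Of the 70 names, 68 had a mature sequence in RefSeq (rat build GRCr8). Shown first are the 8 with the most reads of those with a sequence, which carry most of the region's RPM, and then miR-329-5p, one of the 3 members with the smallest p between the groups. They are written 5′ to 3′ with the seed in capitals.
miR-127-3p: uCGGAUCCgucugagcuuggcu
miR-409b: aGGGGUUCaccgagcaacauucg
miR-434-5p: aGCUCGACucaugguuugaacca
miR-136-3p: cAUCAUCGucucaaaugagucu
miR-379-3p: cUAUGUAAcaugguccacuaac
miR-434-3p: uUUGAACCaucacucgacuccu
miR-410-3p: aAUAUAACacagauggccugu
miR-411-5p: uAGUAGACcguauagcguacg
miR-329-5p: aGAGGUUUucugggucucuguuuc

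No 2 of these share a seed. Among all 68 members with a sequence a single seed, AUACAAG, was shared, by miR-539-3p and miR-381-3p, which averaged 7.74 and 0.573 reads per 1000000 (RPM). The members therefore share a chromosomal region rather than a seed. Their mature strands began with A in 29 of 68 cases (42.7%), against 122 of the 410 analysed names that have a RefSeq sequence (29.8%), and with U in 33.8% against 37.3%.

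Some mature strands of the region were nearly identical in sequence. When members were compared with every other analysed name (at least 18 shared bases without gaps, an offset of at most 2 and at most 2 mismatches), 2 pairs were found, shown with the mismatch in capitals.
miR-379-3p: cuauguaacaUgguccacuaac
miR-411-3p: uauguaacaCgguccacuaa
miR-300-3p: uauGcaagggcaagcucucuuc
miR-381-3p: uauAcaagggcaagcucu
In each pair 1 name held nearly all the RPM. miR-379-3p averaged 1034 and miR-411-3p 1.46 RPM, and miR-300-3p averaged 188 and miR-381-3p 0.573 RPM. How reads that fit both were assigned is not given in the sources used here, so the split within a pair is uncertain.

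A second limit concerns strand. The gene of miR-409b (Mir3581) lies on the minus strand, opposite Mir409, which makes miR-409a. The capitals mark the bases at which both mature strands cover the same positions.
miR-409b: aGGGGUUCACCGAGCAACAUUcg
miR-409a-3p: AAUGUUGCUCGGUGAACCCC
All 20 bases of miR-409a-3p are complementary to miR-409b. Whether the counting used strand is not given, and miR-409a-3p was not analysed here, so RPM listed under miR-409b may hold reads of either strand, which cannot be told apart. The other arm of Mir409, miR-409a-5p, averaged 27.6 RPM (2.05 reads), against 8884 RPM for miR-409b. A further 3 members carried the same values as a name from the opposite strand. miR-369-5p (15.5 RPM) equalled miR-3578 in 21 of 21 libraries, miR-382-3p (1.23 RPM) equalled miR-3592 in 21 of 21, and miR-539-5p (1.97 RPM) equalled miR-3576 in 22 of 22. These pairs are complementary over 22, 21 and 22 bases. Counted in reads, these members held values such as 0.5. That was so in control replicate 4 for miR-369-5p and miR-382-3p, and in control replicate 1 for miR-539-5p. Reads were thus listed in parts, and whether they were divided between the opposite names was not tested. Other opposite pairs differed in at least some libraries, and miR-434-3p averaged 585 RPM against 87.6 for miR-3543, with equal values in 0 of 22 libraries. Reads of miR-434-3p were not whole numbers either, at 46.26 in control replicate 1 and 26.31 in control replicate 3. Unequal values therefore do not show that these names were counted apart. Reads of miR-409b lay near whole numbers, at 583.0 in control replicate 1 and 391.01 in control replicate 3. That does not show which strand they came from.

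The libraries were shallow, with 47843 to 94980 miRNA reads each, so 1 read was worth 10.5 to 20.9 RPM. A level of 3 reads, taken as the floor, was 31.6 to 62.7 RPM. The labels' protocols name no molecular identifiers, so floors and binomial intervals cover counting error only and not amplification. The file of control replicate 2 lacks 36 rows, 11 of them members, which were treated as missing. The neuronal marker list took 5.36 to 7.87% of RPM in control and 5.59 to 7.77% in CPF libraries, with 0 of its 18 names at 0. The choroid plexus and ependyma list (9 names, 0 of them at 0) took 0.058 to 0.110% in control and 0.0635 to 0.801% in CPF libraries, with the high values in CPF replicates 7, 8 and 9. Oligodendrocyte names took 4.73 to 9.01% in control and 3.35 to 8.18% in CPF, and vessel names 22.2 to 28.4% and 22.1 to 31.3%. Microglial names took 0.279 to 0.404% and 0.240 to 0.385%, and red blood cell names 0.00126 to 0.00659% and 0 to 0.00795%. The thalamus and hypothalamus list (6 names, 1 of them at 0) took 0.079 to 0.245% and 0.089 to 0.376%.

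Together the 70 names took 4.17 ± 0.505% of each control library's RPM and 4.35 ± 0.368% of each CPF library's (SD, n = 11 each). Control libraries ran from 3.15 to 4.85% with a median of 4.21%, and CPF libraries from 3.68 to 4.89% with a median of 4.31%. The groups overlapped, with control replicates 3 (3.15%) and 8 (3.58%) below every CPF library and CPF replicate 4 above every control. The proximal names took 3.04 ± 0.484% in control and 3.04 ± 0.318% in CPF. The distal names took 1.13 ± 0.105% and 1.31 ± 0.130%, and without miR-409b 0.313 ± 0.0422% and 0.354 ± 0.0462%. These shares are sums over chosen members and were not tested. In such bulk tissue fewer cells of a type and less RNA per cell cannot be told apart.

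Most of the region's RPM came from 4 names. miR-127-3p supplied 39.2% of it, miR-409b 21.0%, miR-434-5p 14.2% and miR-136-3p 12.6%, together 86.9%. Among all 468 names they ranked 11, 14, 21 and 23. The next were miR-127-5p at 1325 RPM, miR-379-3p at 1034, miR-434-3p at 585, miR-410-3p at 511 and miR-411-5p at 341 RPM. RPM is a share of miRNA reads, and how completely each miRNA was captured was not measured. In all, 17 members averaged at least 3 reads per library, 53 averaged fewer, 40 of them under 1, and 16 were above 0 in every library that lists them.

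**Figure D1:**
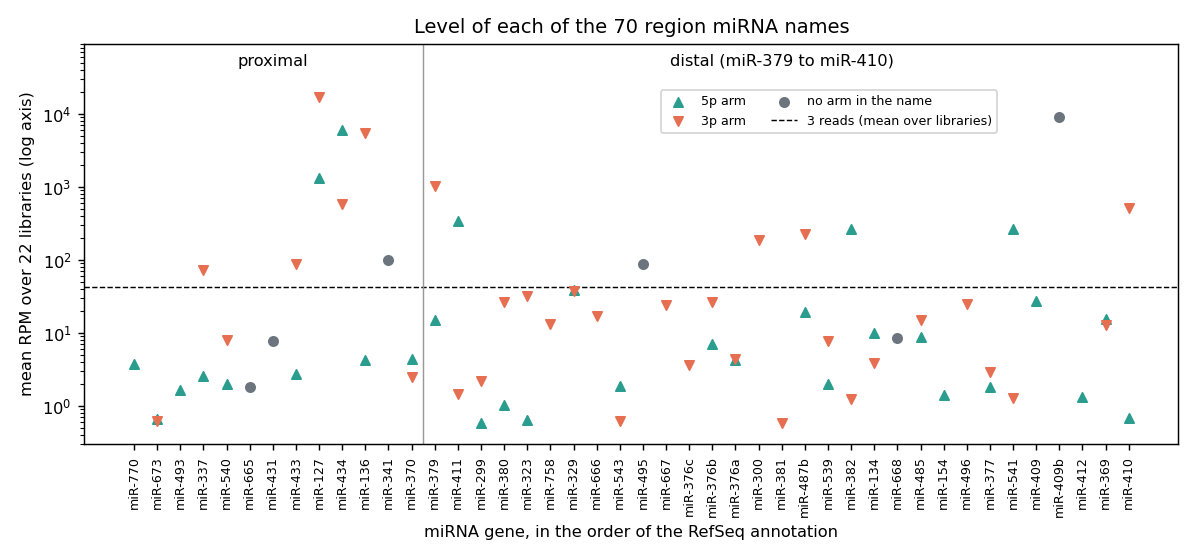
Mean RPM over 22 libraries (log axis) of each of the 70 names, placed by the order of the miRNA genes in the RefSeq annotation, with triangles for the arms and a dashed line at 3 reads. The neighbouring hairpins miR-127, miR-434 and miR-136 stand out in the proximal group, and miR-409b, at 8884 RPM, in the distal group.

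Along the chromosome the 3 abundant proximal hairpins, miR-127, miR-434 and miR-136, are genes 9, 10 and 11 of the order and so lie next to each other. Their flanking proximal genes were lower, with miR-433-3p at 86.5 and miR-341 at 99.7 RPM. In the distal group the first gene, miR-379, and the last, miR-410, were among the higher ones. miR-382-5p and miR-541-5p averaged 265 RPM each, miR-487b-3p 228, miR-300-3p 188 and miR-495 87.6 RPM. Levels of neighbours could differ widely, as for miR-410-3p (511 RPM) and the adjacent miR-369-3p (12.6 RPM) and miR-369-5p (15.5 RPM). A further gene inside the region that the number list leaves out, miR-6331, averaged 940 RPM and had a log2 fold change between CPF and control of 0.02 (limma adjusted p = 0.974).

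The arms of a hairpin were used very unequally. Both arms were listed for 26 hairpins, and in 12 of them the arms together averaged at least 3 reads per library. The 3p arm was the higher in 7 of the 12 and the 5p arm in 5. Summed over libraries, miR-136 gave 8657 reads of 3p and 7 of 5p, so the 3p arm made 99.9% (95% exact binomial interval 99.83 to 99.97%). miR-127 gave 26902 reads of 3p and 2126 of 5p (92.7% 3p, 92.4 to 93.0%). miR-434, their neighbour, was the other way round, with 9681 reads of 5p and 937 of 3p (8.82% 3p, 8.29 to 9.38%). The 3p count of miR-434 is a rounded sum of values that were not whole reads, so its interval is approximate. Arm choice thus ran in opposite directions in adjacent hairpins.

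Among distal hairpins the 3p arm led in miR-379 (1655 reads against 24) and miR-410 (776 against 1). It also led in miR-487b, with 368 reads against 30. The 5p arm led in miR-411 (543 reads against 2), miR-382 (403 against 2) and miR-541 (401 against 2). miR-329 was the exception, with 62 reads of 5p and 60 of 3p, and an interval for the 3p share of 40.0 to 58.4%. In the proximal group miR-433 (142 reads of 3p against 4) and miR-337 (117 against 4) followed the 3p pattern. The 3p share of miR-379 may include reads of the near-identical miR-411-3p, and the reverse, since that split is uncertain.

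**Figure D2:**
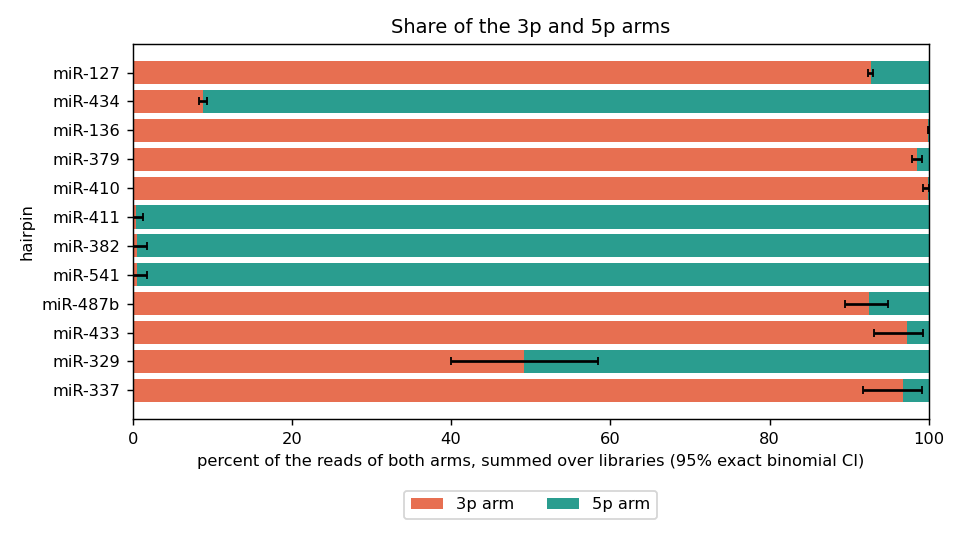
Share of the 3p and 5p arms among the reads of both, summed over the libraries that list both names, for the 12 hairpins with at least 3 reads per library, with 95% exact binomial intervals. The interval of miR-434 rests on a rounded sum. The 3p arm holds over 90% in 7 hairpins, the 5p arm over 90% in 4, and miR-329 stands near the middle.

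Only miR-127 and miR-434 had at least 3 reads of both arms in all 22 libraries, so their ratio could be followed library by library. For miR-127 the log2 ratio of 3p to 5p averaged 3.74 ± 0.284 over control and 3.57 ± 0.150 over CPF (SD, 11 libraries each). It ran from 3.28 to 4.31 in control and from 3.36 to 3.84 in CPF. For miR-434 it was -3.23 ± 0.328 and -3.58 ± 0.465, running from -3.97 to -2.91 in control and from -4.80 to -3.14 in CPF. The ranges of the groups overlapped for both hairpins, and no library turned the preferred arm around. The ratio of miR-434 carries the limit that reads of miR-434-3p were not whole numbers.

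The comparison of CPF with control asked whether the region's miRNAs differed after 21 days of dosing. By limma on log2(RPM + 1), adjusted over all 273 names tested, 0 of the 33 members tested passed the threshold of 0.05, against 2 of 273 names in all (0.733%). At an unadjusted p under 0.05 there were 3 members (miR-409b, miR-329-5p and miR-410-3p, all higher in CPF), against 18 of 273 names (6.59%), of which 13 were higher (4.76%). No member had groups that did not overlap, which also held for 0 of 273 names (0.0%). edgeR on recovered reads called 1 of 13 members tested, miR-409b, against 4 of 140 names (2.86%), with 2 members and 15 names (10.7%) at an unadjusted p under 0.05. DESeq2 on recovered reads called the same member among 58 tested, against 5 of 416 names (1.2%).

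miR-409b, the most abundant distal name, came closest. In control it ran from 6827 to 9650 RPM with a median of 8205, and in CPF from 7812 to 10733 RPM with a median of 9423. All CPF libraries but replicate 1 lay above the control median, and 5 of 11 lay above the highest control, replicate 6. The means were 8188 ± 763 and 9581 ± 958 RPM (SD, n = 11 each), or 582 and 707 reads, a 1.17-fold difference (95% CI 1.07 to 1.28). The log2 fold change was 0.23 (SE 0.0636), and it did not pass with limma (adjusted p = 0.127). It passed with edgeR (0.25, adjusted p = 0.0122), with edgeR and RLE factors (adjusted p = 0.0389) and with DESeq2 (0.23, adjusted p = 0.0363).

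The call on miR-409b also turned on single libraries. Leaving out control replicate 6, its highest control value, made it pass with limma (adjusted p = 0.0422). So did leaving out CPF replicate 1, its lowest CPF value (limma adjusted p = 0.0216). With edgeR it passed in 20 of 22 fits that left out 1 library, and did not pass without control replicate 2 (adjusted p = 0.0507) or control replicate 3 (adjusted p = 0.0530). Without CPF replicates 7, 8 and 9, which are high in choroid plexus markers, its log2 fold change was 0.24 with limma (adjusted p = 0.172) and 0.25 with edgeR (adjusted p = 0.0399). Those replicates also share the first digit of their library codes, and whether the markers bear on the difference was not tested. Since reads of miR-409b and miR-409a-3p cannot be told apart, which strand the difference belongs to was not tested.

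miR-410-3p, made from the last gene of the distal group, ran from 270 to 746 RPM in control (median 433) and from 242 to 731 RPM in CPF (median 598). Of the CPF libraries 10 of 11 lay above the control median, and replicate 1 was again the lowest. Its means were 442 ± 141 and 580 ± 133 RPM (SD, n = 11 each), a log2 fold change of 0.41 (SE 0.176, limma adjusted p = 0.542). The highest library of all was control replicate 1, so no CPF library lay above every control.

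miR-329-5p was near the floor, at 25.0 ± 27.9 RPM in control and 51.4 ± 23.3 RPM in CPF (20 and 42 reads in all). It ran from 0 to 92.3 RPM (median 27.5) and from 13.4 to 83.6 RPM (median 55.6), with 7 of 11 control and 11 of 11 CPF libraries above 0. On the log2(RPM + 1) scale this was a 4.80-fold difference (log2 fold change 2.26, limma adjusted p = 0.300), while the mean RPM differed only 2.06-fold. With a pseudocount of 10 the log2 fold change was 1.12. The opposite arm, miR-329-3p, was at 39.3 ± 19.5 and 36.3 ± 24.5 RPM.

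The abundant proximal names showed no difference between groups that passed the test. miR-127-3p ran from 12056 to 21981 RPM (median 17188) in control and from 12708 to 20998 RPM (median 16988) in CPF, and no CPF library lay above the control range. Its means were 16919 ± 3319 and 16580 ± 2201 RPM, with a log2 fold change of -0.02 (95% CI -0.21 to 0.18, limma adjusted p = 0.974). miR-136-3p ran from 3442 to 7159 RPM (median 5461) and from 4494 to 6591 RPM (median 5006), with means of 5411 ± 977 and 5327 ± 824 RPM. This is a log2 fold change of -0.01 (95% CI -0.22 to 0.19). miR-434-5p ran from 4186 to 6749 RPM (median 6174) and from 5265 to 6822 RPM (median 6229), with a log2 fold change of 0.10 (95% CI -0.06 to 0.25). The intervals of these 3 names still include differences of up to 0.25 on the log2 scale.

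The less abundant strands of the same hairpins pointed in different directions. miR-127-5p was at 1254 ± 159 RPM in control and 1395 ± 196 RPM in CPF, with 8 of 11 CPF libraries above the control median and a log2 fold change of 0.15 (limma adjusted p = 0.788). miR-434-3p ran from 419 to 897 RPM (median 651) in control and from 231 to 654 RPM (median 573) in CPF, where replicate 4 was far below the rest. Only 1 of 11 CPF libraries lay above its control median, and the log2 fold change was -0.26 (SE 0.153, limma adjusted p = 0.788). Without CPF replicate 4 it was -0.14 (limma adjusted p = 0.889). Reads of miR-434-3p were not whole numbers, at 16.62 in CPF replicate 4. Its values may therefore depend on how reads were divided with miR-3543, which was not tested. miR-136-5p, at 2.44 and 6.06 RPM, was below the floor in both groups.

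**Figure D3:**
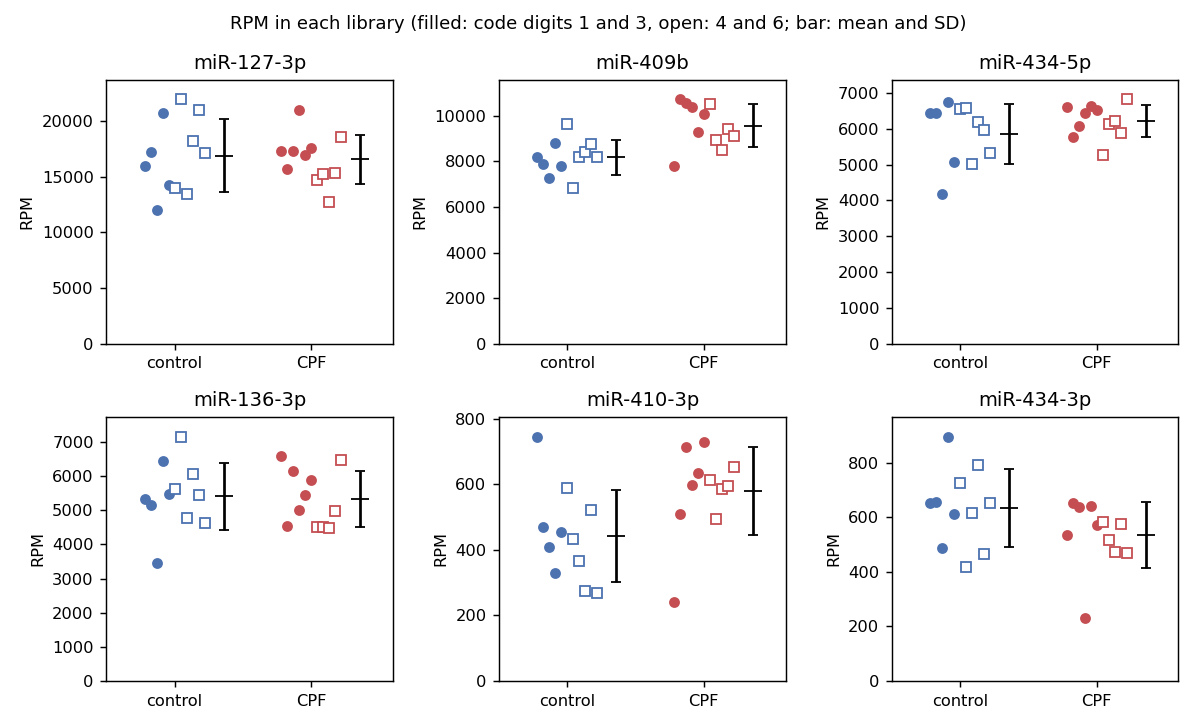
RPM of 6 region miRNAs in each library, control and CPF, with axes from 0; filled and open points mark the first digit of the library code and the bar gives the mean and SD of 11 libraries. The groups overlap in all 6 panels, and miR-409b has 5 CPF libraries above the highest control.

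Among the other distal members with at least 3 reads, fold changes were small against their errors. miR-379-3p was at 990 ± 153 and 1077 ± 161 RPM (log2 fold change 0.12), and miR-411-5p at 334 ± 79.1 and 348 ± 80.7 RPM (0.05). miR-382-5p was at 244 ± 68.1 and 285 ± 92.4 RPM (0.21), miR-541-5p at 254 ± 67.4 and 275 ± 76.7 RPM (0.10), and miR-487b-3p at 221 ± 74.2 and 236 ± 44.0 RPM (0.16). miR-300-3p was at 176 ± 52.5 and 200.1 ± 56.5 RPM (0.20) and miR-495 at 86.8 ± 44.0 and 88.3 ± 31.3 RPM (0.15). None of these 7 passed the limma test, with adjusted p from 0.806 to 0.972.

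Of the low proximal members, miR-341 was at 112 ± 50.2 RPM in control and 87.0 ± 25.0 RPM in CPF (log2 fold change -0.27). miR-337-3p was at 62.4 ± 36.1 and 83.3 ± 37.5 RPM (0.58), near the floor in both groups. miR-433-3p was at 82.7 ± 36.1 and 90.3 ± 46.4 RPM, yet its log2 fold change was -0.30. The sign differed from that of the means because CPF replicate 9 held none of its reads, and without that library the log2 fold change was 0.30. None of the 3 passed (limma adjusted p = 0.788 to 0.954).

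**Figure D4:**
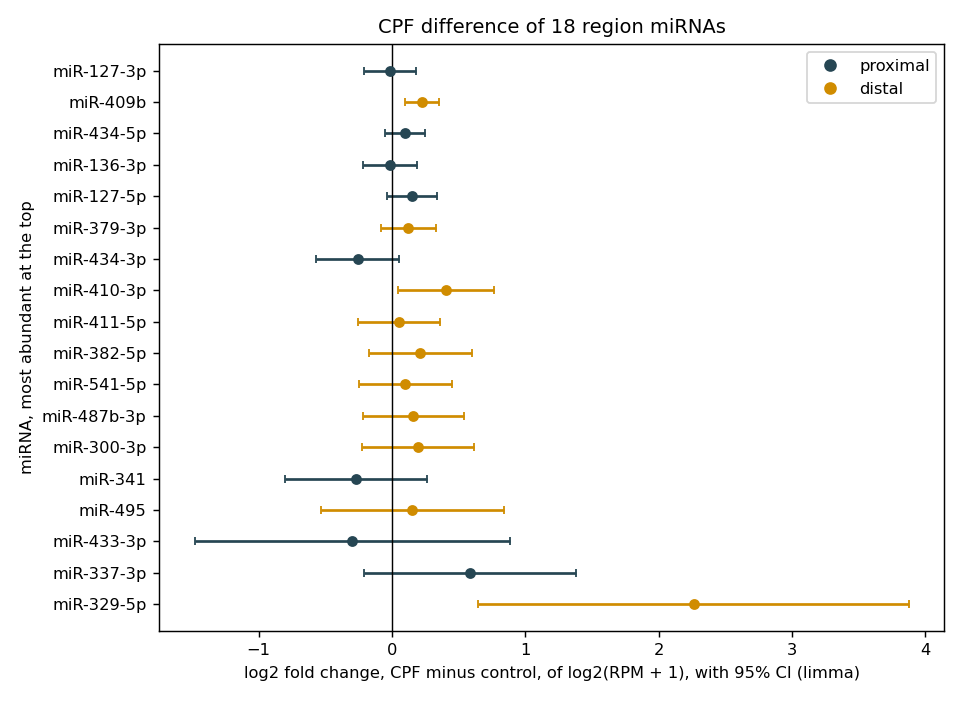
Log2 fold change of CPF against control on log2(RPM + 1), with 95% limma intervals, for the 18 members that averaged at least 3 reads in either group, ordered by mean RPM and coloured by place in the region. Intervals include 0 for all but miR-409b, miR-410-3p and miR-329-5p, and widen toward the low members at the bottom.

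Counted over the list, 24 of the 33 members tested were higher in CPF and 9 lower, with a median log2 fold change of 0.16. Over all 273 names tested 53.1% were higher and the median was 0.02. The 17 members averaging at least 3 reads had a median of 0.12, with 12 higher, against 0.01 and 97 of 190 for all names at that level. The distal and proximal groups differed in their counts, with 21 of 25 distal members higher (median 0.23) and 3 of 8 proximal ones (median -0.02). Of the 25 distal members tested, 16 averaged under 3 reads, where the sign of the fitted fold can differ from that of the mean RPM, as for miR-329-3p (0.06 on the log2 scale, with the lower mean in CPF). The members were chosen with earlier results of these data known, and these counts were not tested.

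The members known for roles at synapses, with the numbers of miR-134, miR-329, miR-369, miR-381, miR-485 and miR-496, gave 7 tested names. By limma 0 of the 7 passed the threshold. All 7 averaged under 3 reads over the 22 libraries, so no direction is counted for them. Among them were miR-134-5p at 10.0 RPM in each group and miR-485-3p at 12.8 and 17.3 RPM. miR-369-3p was at 0.5 and 1.27 reads per library and miR-496-3p at 1.73 and 1.82 reads, also below the floor. At this depth 1 read more or less moves such a value by 10.5 to 20.9 RPM.

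In all, 18 members had at least 3 reads in a group and are given with a fold, 13 of them higher and 5 lower. The other 15 tested members were below 3 reads in both groups and get none. Among them miR-667-3p was at 19.0 and 29.3 RPM, miR-487b-5p at 20.1 and 18.3, miR-376b-3p at 26.5 and 25.3 and miR-758-3p at 13.7 and 12.3 RPM. The 37 members that were not tested averaged 0.573 to 8.86 RPM. Of those, 4 were listed at 0 in all control libraries and 7 in all CPF libraries that list them, with at most 4 reads and 1 read, respectively, in the other group.

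The first digit of the library code splits control into digits 1 (n = 5) and 4 (n = 6) and CPF into digits 3 (n = 6) and 5 libraries of digit 6. What the digit stands for is not given in the labels, nor which digits match across groups. The region's share of RPM was 4.06 ± 0.625% at digit 1, 4.27 ± 0.417% at digit 4, 4.55 ± 0.231% at digit 3 and 4.11 ± 0.381% at digit 6 (SD). Inside control, 0 of 33 members differed between digits 4 and 1 by limma, against 0 of 273 names (0.0%), with 3 members and 10 names (3.66%) at an unadjusted p under 0.05. Inside CPF, 0 of 33 differed between digits 6 and 3, against 0 of 273 names (0.0%), with 3 members and 19 names (6.96%) at an unadjusted p under 0.05. edgeR called 0 of 13 members in either contrast, against 0 of 148 names (0.0%) in control and 1 of 148 (0.676%) in CPF.

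The members with the smallest p in these contrasts were low. In control these were miR-666-3p (5.63 RPM at digit 1, 25.4 at digit 4), miR-667-3p (30.7 and 9.27) and miR-134-5p (19.4 and 2.17), each with a limma adjusted p of 0.917. In CPF they were miR-369-3p (29.2 RPM at digit 3, 2.30 at digit 6), miR-485-3p (29.7 and 2.47) and miR-433-3p (115 and 60.8), each with an adjusted p of 0.588. Apart from miR-433-3p all were below the floor.

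When digit 3 was set against 1 and 6 against 4, a matching chosen here, miR-409b was higher in CPF by 0.29 and 0.16 on the log2 scale. With 3 against 4 and 6 against 1 it was higher by 0.23 and 0.22. The direction was therefore the same in all 4 pairings, and none passed with limma (adjusted p = 0.468 to 0.822) or edgeR (adjusted p = 0.283 to 0.397). The pairings reuse the same libraries, so they are not 4 independent comparisons. miR-410-3p was higher by 0.22, 0.58, 0.46 and 0.34 in the same pairings, without passing. Tested as a difference between the first 2 pairings, the CPF effect differed for 0 of 33 members, against 0 of 273 names (0.0%). At an unadjusted p under 0.05 there were 2 members and 11 names (4.03%), with miR-485-3p, miR-134-5p and miR-376b-3p at the smallest p (limma adjusted p = 0.865 each).

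Libraries of the same group varied more in the abundant members than counting alone gives. In control the coefficient of variation of miR-127-3p was 19.6%, against 2.88% from counting reads, and in CPF 13.3% against 2.84%. For miR-136-3p it was 18.05% against 5.08% in control and 15.5% in CPF, and for miR-434-5p 14.3% against 4.89% and 7.35% against 4.65%. miR-409b varied less, with 9.31% against 4.14% in control and 10.0% against 3.76% in CPF. For the 13 members with fewer than 100 reads the measured spread was 0.735 to 1.79 times that of counting.

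The leading strands of the 3 neighbouring proximal hairpins varied together across libraries. Over the 22 libraries, as log2 RPM minus the mean of the library's code digit, miR-434-5p and miR-136-3p had Pearson's r = 0.76 (permutation adjusted p = 0.00018) and Spearman's rho = 0.64 (adjusted p = 0.0075). miR-127-3p had r = 0.64 with miR-434-5p (adjusted p = 0.00222, permutation) and rho = 0.62 (adjusted p = 0.0075). With miR-136-3p it had r = 0.66 (permutation adjusted p = 0.00222) and rho = 0.58 (adjusted p = 0.0106). Without the 2 libraries farthest from the median of the first-named miRNA, r was 0.62, 0.47 and 0.50. Within control r was 0.84, 0.69 and 0.74, and within CPF 0.62, 0.46 and 0.49.

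Over all 22 libraries miR-409b showed no such relation. Its r was 0.01 with miR-127-3p, 0.02 with miR-434-5p and -0.13 with miR-136-3p (permutation adjusted p = 0.967, 0.967 and 0.845), and rho was 0.09, 0.01 and -0.05 (adjusted p = 0.964 each). Within the groups these values differed in sign. With miR-434-5p r was 0.35 in control and -0.63 in CPF, with miR-136-3p 0.09 and -0.41, and with miR-127-3p -0.06 and 0.12. Whether the correlations differ from each other was not tested. All 6 pairs of the 4 names were computed and adjusted together, with 100000 permutations each. RPM of a library share 1 total, so the values are not fully independent.

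**Figure D5:**
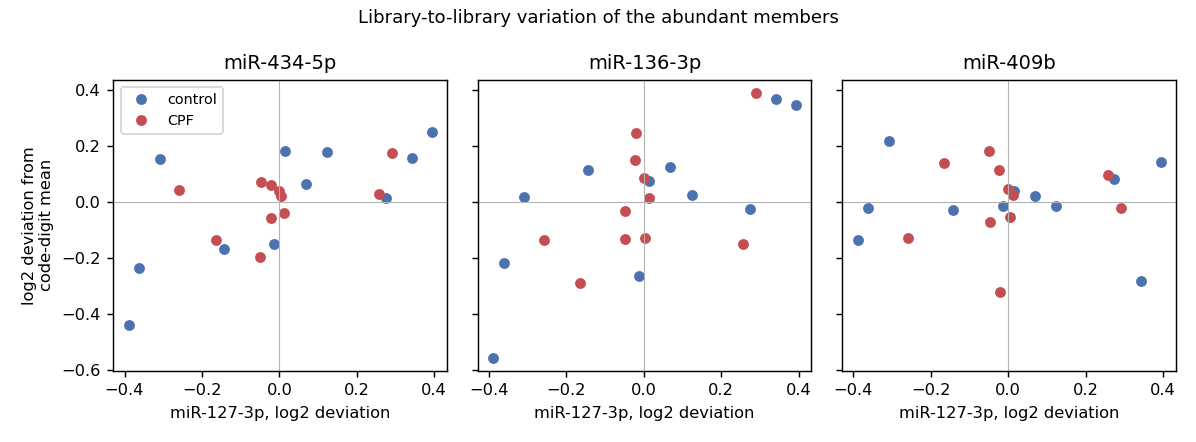
Log2 RPM of miR-434-5p, miR-136-3p and miR-409b against miR-127-3p, each as the deviation from the mean of the library's code digit, 1 point per library, control and CPF by colour. The first pair of panels rises from left to right (r = 0.64 and 0.66), and the miR-409b panel shows no slope (r = 0.01).

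Single libraries stood at the ends for several of the 17 members with at least 3 reads. Control replicate 3 was the lowest of its group for 5 of them, control replicate 1 the highest for 5, and CPF replicate 9 the lowest for 5. CPF replicate 1 was the lowest of its group for 4, among them miR-409b and miR-410-3p, and the highest for 1, miR-136-3p. Without CPF replicates 7, 8 and 9 the log2 fold changes of miR-127-3p and miR-136-3p were 0.07 and 0.07, so their direction is not fixed.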

How the data were processed

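Values were deposited by the authors as reads per 1000000 miRNA reads (RPM) per miRNA name, per the file headers, for 22 libraries in 2 groups of 11. Build rn4, Bowtie, cutadapt 1.2, Partek 6.6 and CASAVA 1.8.2 were used, per the submitters' processing notes. Neither strand use nor the handling of reads with several matches is stated there. Rows of the same name were summed. A two-sided limma-trend test (limma 3.58.1, R 4.3.3) of log2(RPM + 1), the scale of all fold changes, covered the 273 names that reached 10 RPM in 11 or more libraries, and p-values were Benjamini-Hochberg adjusted over all 273. Reads were recovered by taking the commonest low RPM value as 1 read, which made 93.4 to 98.1% of a library's low values whole reads. They served edgeR 4.0.16 (TMM, RLE) and DESeq2 1.42.0, on the 432 names that every library lists. All 231 pairs of libraries differed by more than counting noise (chi-square per degree of freedom at least 2.42). The limma step was run on simulated data with larger changes than that of miR-409b and with no changed names at the lowest read numbers. That run does not show how well small changes or low names are found. No coordinates are given, since the gene table is of build GRCr8 and served for order, strand and sequences. Correlations used 100000 permutations.

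Members named are those past any threshold, the 15 of highest mean RPM, 5 per direction by smallest p, 3 by smallest p for every digit contrast and the difference between them, and both arms of hairpins where either averages at least 3 reads. miR-369-5p, miR-382-3p, miR-539-5p, miR-539-3p, miR-381-3p, miR-496-3p, miR-409a-5p and miR-6331 are named for their sequence, role or place, after their values were seen. The members and lists were chosen with earlier results of these data known. Alternatives were other pseudocounts, filters and scalings, unsummed rows, missing rows as 0, the count tests, a replicate block, code digits and leaving out libraries.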

Additional observations from a re-analysis of the deposited data

How the results depend on the processing

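The count of members past the threshold between CPF and control was 0 with limma and became 1 (miR-409b) with edgeR TMM, edgeR RLE, DESeq2 and edgeR without CPF replicates 7, 8 and 9. Leaving out each library gave 0 to 1 with limma and 0 to 1 with edgeR. The edgeR fits that left out libraries, split by code digit or had the block were added after the data were seen. With the replicate number as a block, 0 members passed with limma and 0 with edgeR (miR-409b adjusted p = 0.294 and 0.187). The labels do not say whether the numbers pair the libraries. Of the same-numbered pairs, 2 of 11 had a correlation of deviations over 0.1, and 1 of 11 control libraries correlated best with its own number. Such values cannot show whether libraries were paired by design, since a pairing need not leave a shared deviation. The median log2 fold change of the 33 members tested with limma ran from 0.11 to 0.24 when each library was left out. It was 0.0064 for digit 6 against 1 and 0.28 without CPF replicates 7, 8 and 9. With DESeq2 the median was 0.0255, but over the 58 members tested there. These include low names that the limma filter left out, so that value is not comparable with the others. The difference in the members' share of RPM (CPF minus control, percentage points) was 0.178, ran from 0.0768 to 0.247 with each library left out, and was 0.308 when the most abundant miRNA was left out of the total.

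Signs turned for members with small fold changes, none of them past the threshold. For digit 6 against 1, miR-379-3p was at -0.12, miR-382-5p at -0.17 and miR-300-3p at -0.081, and for 6 against 4 miR-487b-3p at -0.0513. miR-433-3p was at 0.66 (3 against 1), 0.40 (3 against 4), 0.32 without CPF replicates 7, 8 and 9, 0.13 with DESeq2, and -0.44 to 0.30 with each library left out. miR-495 was at -0.47 (3 against 1) and -0.0696 to 0.28 with each library left out, and miR-411-5p at -0.0039 to 0.11. miR-127-3p was at 0.15 (3 against 1), 0.0182 (3 against 4), 0.0012 without the most abundant miRNA in the total, 0.0654 without CPF replicates 7, 8 and 9, and -0.0616 to 0.0251 with each library left out. miR-136-3p was at 0.14, 0.0015, 0.0015 and 0.0701 in the same settings, 0.0012 with edgeR TMM, and -0.0779 to 0.0277 with each library left out. The cause was not tested. Other scalings moved the median of all names by 0.0035 and 0.0165 (log2). At 3 reads for 31.6 to 62.7 RPM, depth limits 53 of the 70 members.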
